A study of Mus musculus with 12 samples.

Results

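The 9 genes described here encode amino acid and peptide transporters of the kidney proximal tubule: Slc3a1, Slc7a9, Slc6a19, Slc6a18, Slc1a1, Slc15a2, Slc7a7, Slc7a8 and Slc38a3. They were chosen by gene name, with earlier results of these data known, and all 9 were found among the 22053 rows of the deposited table and passed the filter on low values that left 13148 genes for testing. Whole kidney tissue of 12 C57BL/6 mice was measured by RNA sequencing, with 1 library per mouse and 4 mice in each of 3 groups. To induce CKD, mice were given food with 0.2% adenine over 8 weeks, from 8 to 16 weeks of age, with weekly i.p. injections of PBS. CKD+Fe mice were fed the same adenine diet, and their weekly i.p. injection was iron dextran, 0.5 g/kg. Control mice were fed the diet without adenine and received PBS. The adenine diet is a model of tubular injury, and all values are from a mixture of every kidney cell type. The labels give no sex and no batch, and the mice are numbered within each group only to name them.

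The proximal tubule takes back nearly all filtered amino acids and small peptides. A first set of carriers in the apical brush border brings them into the cell, and a second set in the basolateral membrane passes them on to the blood. Several of these carriers work only as a pair of proteins, and loss of single members causes inherited disorders of urinary amino acid loss, such as cystinuria (SLC3A1 and SLC7A9), Hartnup disorder (SLC6A19), dicarboxylic aminoaciduria (SLC1A1) and lysinuric protein intolerance (SLC7A7).

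The genes lie on 7 chromosomes of the mouse genome build GRCm38. Slc6a19 (chr13:73679745-73704865) and Slc6a18 (chr13:73661750-73678023) are neighbours on the minus strand of chromosome 13, and Slc7a7 (chr14:54369442-54417780) and Slc7a8 (chr14:54722216-54781886) both lie on the minus strand of chromosome 14. The others are Slc3a1 (chr17:85028347-85064243, plus strand), Slc7a9 (chr7:35448796-35466036, plus), Slc1a1 (chr19:28835049-28913960, plus), Slc15a2 (chr16:36750178-36784962, minus) and Slc38a3 (chr9:107650634-107669530, minus). In the GENCODE M21 annotation, Slc3a1, Slc6a19, Slc1a1, Slc15a2 and Slc7a7 each overlap at least 1 gene on the opposite strand. The library kit was stranded, and whether strand was used when the values were made is not given in the sources used here.

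Promoter sequences are shown for the 2 subunits of 1 exchanger, Slc3a1 and Slc7a9, of which only Slc3a1 passed the test in CKD, and for Slc1a1, which fell most of the 9. Each is the RefSeq window of 300 bases (GRCm38.p6, 250 bases before the transcript start and 50 from it on, 5′ to 3′ on the strand of the gene). The windows are chr17:85028097-85028396 for Slc3a1, chr7:35448842-35449141 for Slc7a9 and chr19:28834885-28835184 for Slc1a1, all on the plus strand. The Slc7a9 window lies wholly inside the gene as placed above, so the bases before its transcript start are not upstream of the gene. Capitals mark matches, on either strand, to 3 motifs of transcription factors active in the proximal tubule or of nuclear receptors: GTTAAT (an HNF1 half-site), CAAAGTCCA (HNF4) and AGGTCA (a nuclear receptor half-site).
Slc3a1: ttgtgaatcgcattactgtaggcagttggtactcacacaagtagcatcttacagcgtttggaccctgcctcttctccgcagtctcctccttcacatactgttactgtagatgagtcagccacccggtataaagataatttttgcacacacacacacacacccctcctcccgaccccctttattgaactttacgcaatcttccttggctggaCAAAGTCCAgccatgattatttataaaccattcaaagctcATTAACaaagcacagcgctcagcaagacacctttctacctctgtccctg
Slc7a9: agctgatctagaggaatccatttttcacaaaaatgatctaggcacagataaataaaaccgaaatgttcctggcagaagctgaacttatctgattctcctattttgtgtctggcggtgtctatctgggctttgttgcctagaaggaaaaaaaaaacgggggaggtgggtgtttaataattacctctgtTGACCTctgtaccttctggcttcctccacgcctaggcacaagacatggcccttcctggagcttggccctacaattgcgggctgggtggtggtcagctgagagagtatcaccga
Slc1a1: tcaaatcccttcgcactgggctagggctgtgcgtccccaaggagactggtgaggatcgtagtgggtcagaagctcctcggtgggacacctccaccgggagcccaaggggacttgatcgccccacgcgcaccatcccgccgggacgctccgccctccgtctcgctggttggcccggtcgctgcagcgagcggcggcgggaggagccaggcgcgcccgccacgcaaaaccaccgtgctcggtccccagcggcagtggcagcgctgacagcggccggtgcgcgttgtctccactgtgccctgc
The Slc3a1 window held the HNF4 letters at position -39 from the transcript start and the HNF1 half-site, on the minus strand, at position 2. The Slc7a9 window held the nuclear receptor half-site on the minus strand at position -63, and the Slc1a1 window held none of these letters. Of 32851 RefSeq windows of the same length, 7.10% held the HNF1 half-site, 0.475% the HNF4 letters and 16.3% the nuclear receptor half-site. Windows were given for 7 of the 9 genes, Slc6a18 and Slc38a3 being without one. Slc7a7 and Slc7a9 had more than 1, which made 12 windows, of which 2 held the HNF1 half-site (Slc3a1 and Slc7a7), 1 the HNF4 letters (Slc3a1) and 3 the nuclear receptor half-site (Slc7a7 and overlapping windows of Slc7a9). A match is a description of the letters and was not tested as a binding site.

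Expression is given in FPKM (fragments scaled to transcript length and to the mapped reads of the library), which allows levels to be compared between genes. Means are given ± SD with n = 4 mice per group. In control mice Slc3a1 had the highest level of the 9 transcripts, followed by Slc6a18, and the ranges of these 2 did not overlap with each other or with the next gene. Slc1a1, Slc7a7, Slc15a2, Slc7a9 and Slc6a19 followed with means from 92.9 to 57.5 FPKM, and each overlapped the next in this order. Slc7a8 came next, its range overlapping that of Slc6a19, and Slc38a3 was lowest, with no overlap with Slc7a8. In CKD mice Slc3a1 and Slc6a18 were still the highest, without overlap, and the ranges of every neighbouring pair from Slc7a7 down overlapped. In CKD+Fe mice every neighbouring pair overlapped, and Slc38a3 ranked 5 of 9, against 9 in control mice. The 9 transcripts together summed to 898 ± 126 FPKM in control mice, 506 ± 69.99 FPKM under CKD and 596 ± 131 FPKM under CKD+Fe.

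Some mice stood apart from their groups across the whole table. In control mouse 3, CKD mouse 3 and CKD+Fe mouse 1, 593, 800 and 439 genes, respectively, differed by 2-fold or more from the other mice of the group, against 41 to 223 genes in the other mice. Control mouse 3 had the lowest value of its group for 7 of the 9 transporters and CKD+Fe mouse 1 for 8 of 9. The same 2 mice had the lowest summed level of 17 proximal tubule markers in their groups, 11267 FPKM in control mouse 3 and 2353 FPKM in CKD+Fe mouse 1. The part of these differences in the results below was not tested. Where the reported call of a transporter or partner changed without 1 or all of these mice, the value, range or p-value without them is given.

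**Figure D1:**
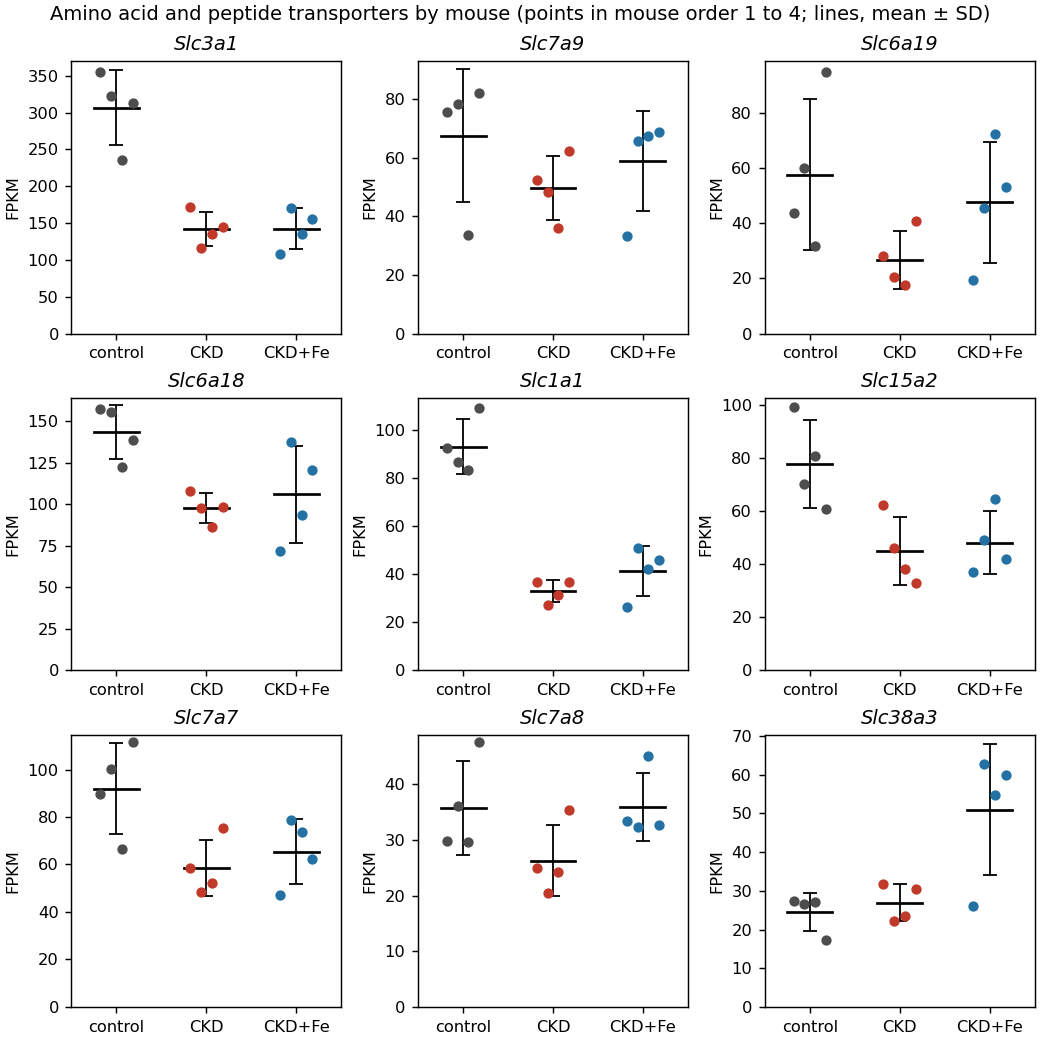
Expression of the 9 transporter transcripts in each mouse (vertical axis, FPKM, starting at 0; points, mice 1 to 4 of each group; lines, mean ± SD) in control, CKD and CKD+Fe mice. The CKD points of Slc3a1, Slc6a18 and Slc1a1 all lie below the control points, and in Slc38a3 all but 1 of the CKD+Fe points lie above every control and CKD point.

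In CKD against control mice, 6 of the 9 transporters were lower and 0 were higher (limma on log2(FPKM + 1), Benjamini-Hochberg adjusted p under 0.05 over 13148 genes). Among all genes tested 13.3% were lower and 54.6% higher. The 6 were Slc1a1, Slc3a1, Slc6a19, Slc15a2, Slc7a7 and Slc6a18, and Slc7a9, Slc7a8 and Slc38a3 did not pass. For 3 of the 9 (Slc3a1, Slc6a18 and Slc1a1) every CKD mouse was below every control mouse, which held for 10.5% of all genes. The median log2 fold change was -0.64 over the 9 transporters and 0.50 over all genes tested. When the mice were rescaled by median-of-ratios, the median of all genes was 0.01, with 3856 genes lower and 3781 higher of 13148 against 1748 lower and 7181 higher before it, and 8 of the 9 transporters were lower. Without the 3 mice that stood apart, 7 of the 9 were lower, Slc7a9 included (-0.53, adjusted p = 0.00111). That fit called 2063 of all 13148 genes lower and 7811 higher. In whole tissue, fewer proximal tubule cells and less RNA per cell cannot be told apart.

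The apical exchanger of cystine and dibasic amino acids is built from a heavy subunit, rBAT (Slc3a1), and a light subunit that carries the transport, b0,+AT (Slc7a9). Slc3a1 expression was 355, 322, 236 and 313 FPKM in the control mice, 172, 116, 135 and 145 FPKM in the CKD mice, and 107, 171, 135 and 156 FPKM in the CKD+Fe mice. Every mouse on adenine, with or without iron, was below every control mouse. The mean fell from 307 ± 50.6 to 142 ± 23.2 FPKM, a log2 fold change of -1.10 (SE 0.18, adjusted p = 0.000123, limma). Slc7a9 expression was 75.6, 78.4, 33.7 and 82.1 FPKM in the control mice, 52.5, 48.2, 35.9 and 62.4 FPKM in the CKD mice, and 33.4, 65.7, 67.4 and 68.7 FPKM in the CKD+Fe mice. Control mouse 3 was below every CKD mouse, and the other control mice were above them all. The log2 fold change in CKD was -0.38 (SE 0.29, adjusted p = 0.269, limma). Without control mouse 3 it was -0.68 (adjusted p = 0.0243), with array quality weights -0.46 (adjusted p = 0.0307), and after median-of-ratios rescaling -0.95 (adjusted p = 0.0181).

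A ratio of 2 genes within a mouse does not depend on how the mice are scaled to each other. The FPKM of Slc3a1 was 4.70, 4.11, 7.002 and 3.82 times that of Slc7a9 in the control mice, 3.28, 2.42, 3.77 and 2.32 times in the CKD mice, and 3.22, 2.605, 1.999 and 2.27 times in the CKD+Fe mice. The ratio was lower in every mouse on adenine than in any control mouse, although CKD mouse 3, at 3.77, was just under control mouse 4, at 3.82. The mean log2 ratio was 2.25 ± 0.39 in control mice, 1.53 ± 0.34 under CKD and 1.31 ± 0.29 under CKD+Fe. The differences from control were -0.72 in CKD and -0.94 in CKD+Fe mice (exact two-sided permutation p = 0.0286 each, the smallest that 4 mice against 4 allow). Adjusted over the 15 ratio tests (5 pairs in 3 comparisons), both p-values were 0.143 and did not pass 0.05. As no p-value could be below 0.0286, the adjustment could be passed only if many of the 15 tests reached that value. Without control mouse 3, which had the highest ratio, the differences were -0.54 and -0.76 (exact permutation p = 0.0571 each). The CKD difference also had an exact permutation p of 0.0571 without control mouse 1, 2 or 4 or CKD mouse 2 or 4, at -0.83 to -0.62. Groups that do not overlap cannot come to overlap when a mouse is left out. These p-values come from fewer arrangements and unequal groups, and do not by themselves show a smaller difference.

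The sodium-dependent carriers of neutral amino acids in the brush border are B0AT1 (Slc6a19), the main one of the early segments, and its neighbour and relative B0AT3 (Slc6a18), found further along the tubule. Slc6a19 expression was 43.7, 59.9, 31.7 and 94.7 FPKM in the control mice, 28.0, 20.4, 17.4 and 40.6 FPKM in the CKD mice, and 19.4, 45.4, 72.3 and 53.1 FPKM in the CKD+Fe mice. The control mice spread over a 3-fold range, and the highest CKD mouse was above the lowest control mouse. The log2 fold change in CKD was -1.04 (SE 0.39, adjusted p = 0.0309, limma). The adjusted p was above 0.05 without control mouse 2 (0.0682), control mouse 4 (0.101), CKD mouse 2 (0.0778) or CKD mouse 3 (0.0846), and with no filter on low values (0.0921). Slc6a18 expression was 157, 155, 123 and 139 FPKM in the control mice, 108, 97.9, 86.1 and 98.6 FPKM in the CKD mice, and 71.6, 138, 93.8 and 121 FPKM in the CKD+Fe mice. The control and CKD mice did not overlap, and CKD+Fe mouse 2 was within the control range. The CKD change of Slc6a18 was -0.55 on the log2 scale (SE 0.18, adjusted p = 0.0156, limma), and with quantile normalization the change was -0.32 (adjusted p = 0.214). The ratio of Slc6a18 to Slc6a19 did not differ beyond the spread between mice in any comparison (lowest exact permutation p = 0.114, adjusted 0.286).

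EAAT3 (Slc1a1) takes up glutamate and aspartate from the filtrate. Its expression was 92.5, 86.5, 83.4 and 109 FPKM in the control mice, 36.6, 27.1, 31.5 and 36.6 FPKM in the CKD mice, and 26.4, 50.7, 42.1 and 45.8 FPKM in the CKD+Fe mice. The lowest control mouse was above every mouse on adenine, and CKD+Fe mouse 1 was the lowest of all. The mean fell from 92.9 ± 11.5 to 33.0 ± 4.58 FPKM in CKD, a log2 fold change of -1.47 (SE 0.18, adjusted p = 1.57e-05, limma), and this value placed Slc1a1 at the 2.68 percentile of all genes tested. Slc1a1 went from rank 3 of the 9 in control mice to rank 6 in CKD and rank 8 in CKD+Fe mice.

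PEPT2 (Slc15a2) reclaims di- and tripeptides in the late proximal tubule. Its expression was 99.4, 70.2, 80.8 and 60.7 FPKM in the control mice, 62.4, 45.9, 38.3 and 33.0 FPKM in the CKD mice, and 37.1, 49.1, 64.5 and 41.9 FPKM in the CKD+Fe mice. CKD mouse 1 was above control mouse 4, and the other CKD mice were below all control mice. The log2 fold change in CKD was -0.80 (SE 0.22, adjusted p = 0.00541, limma), and it stayed past the threshold with each mouse left out in turn, between -0.96 and -0.66.

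At the basolateral membrane, the light chains y+LAT1 (Slc7a7) and LAT2 (Slc7a8) pair with the heavy chain 4F2hc (Slc3a2) to export dibasic and neutral amino acids, and SNAT3 (Slc38a3) takes up glutamine from the blood for ammonia production. Slc7a7 expression was 89.5, 100.4, 66.5 and 111 FPKM in the control mice, 58.6, 48.2, 52.1 and 75.2 FPKM in the CKD mice, and 47.3, 78.6, 73.6 and 62.3 FPKM in the CKD+Fe mice. Only CKD mouse 4 of the CKD mice was above a control mouse, control mouse 3. The log2 fold change in CKD was -0.64 (SE 0.20, adjusted p = 0.0114, limma), and with quantile normalization it was -0.56 (adjusted p = 0.0565). Slc7a8 expression was 29.8, 36.2, 29.6 and 47.6 FPKM in the control mice, 25.1, 20.4, 24.3 and 35.4 FPKM in the CKD mice, and 33.5, 32.3, 45.03 and 32.7 FPKM in the CKD+Fe mice. All groups overlapped, and the CKD mice other than mouse 4 were below every control mouse. The log2 fold change in CKD was -0.43 (SE 0.19, adjusted p = 0.0568, limma), and it passed the threshold in 5 alternatives, among them median-of-ratios rescaling (-0.99, adjusted p = 0.000752) and the fits without CKD mouse 4 (-0.58, adjusted p = 0.0147), control mouse 1 (-0.51, adjusted p = 0.0473) or control mouse 3 (-0.51, adjusted p = 0.0373).

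Slc38a3 was the only transporter of the 9 with a positive log2 fold change in CKD. Its expression was 27.3, 26.6, 27.2 and 17.2 FPKM in the control mice, 31.6, 22.2, 23.4 and 30.4 FPKM in the CKD mice, and 26.0, 62.8, 54.9 and 60.0 FPKM in the CKD+Fe mice. Control and CKD mice overlapped, and CKD+Fe mice 2, 3 and 4 were above all others. The log2 fold change in CKD was 0.13 (SE 0.25, adjusted p = 0.652, limma), below the median of 0.50 over all genes, and it was -0.42 after median-of-ratios rescaling, -0.17 with quantile normalization and -0.02 without control mouse 4.

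**Figure D2:**
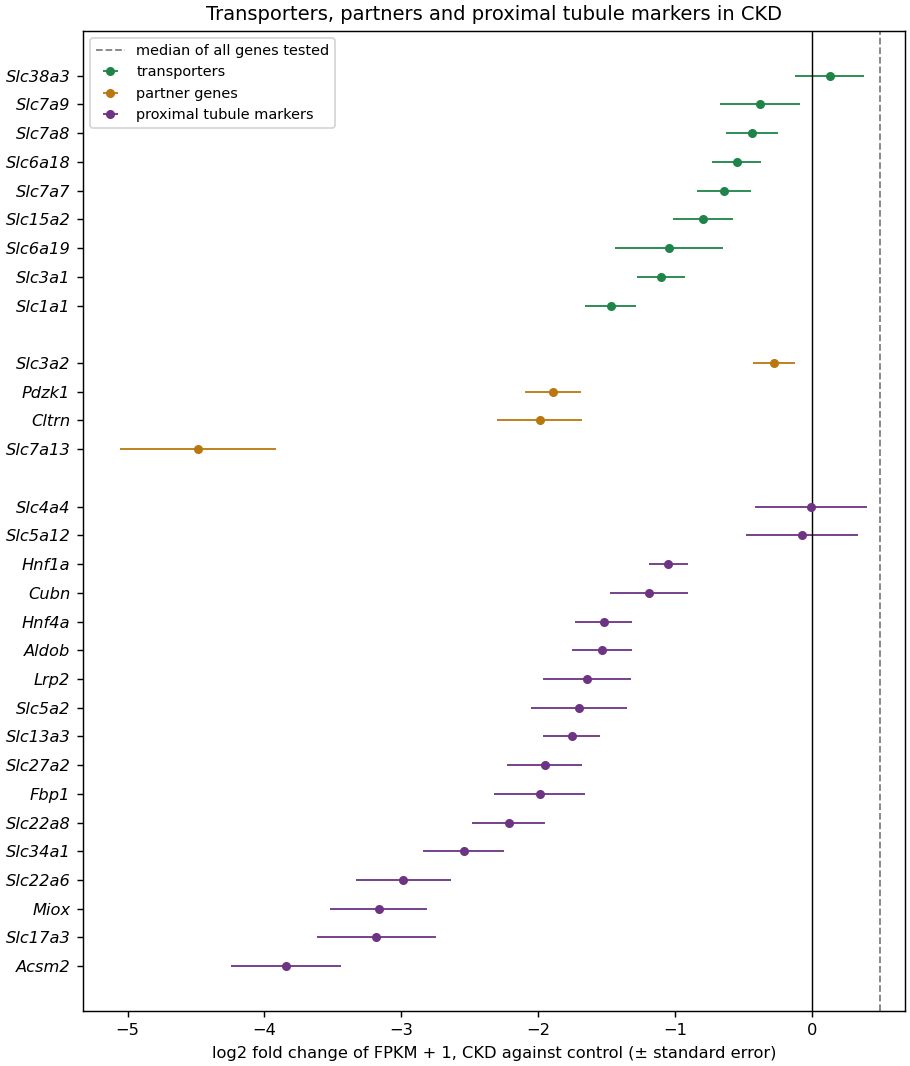
Change (log2 fold) of FPKM + 1, CKD against control (horizontal axis; points, limma estimates; bars, standard error) for the 9 transporters, 4 partner genes and 17 proximal tubule markers. The transporters run from -1.47 to 0.13, and the markers from -3.84 (Acsm2) to -0.003 (Slc4a4), with the dashed line at the median of all genes, 0.50.

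Genes that mark the proximal tubule cell had a lower median than the transporters. Of 17 such markers, 15 were lower and 0 higher in CKD mice, with a median log2 fold change of -1.75, and the largest falls were those of Acsm2, a medium-chain acyl-CoA synthetase (-3.84), Slc17a3, an organic anion carrier (-3.18), and Miox, the enzyme that breaks down myo-inositol (-3.17). The markers' summed level was 11267 to 14873 FPKM in control mice and 2075 to 3831 FPKM in CKD mice, and no marker was at 0 in all mice of a group. Each transporter was therefore also expressed relative to the mean log2(FPKM + 1) of 16 of these markers in the same mouse (Hnf4a was left out because of failed estimates). This marker mean was 8.18 ± 0.25 in control mice, 6.25 ± 0.35 under CKD and 6.69 ± 0.61 under CKD+Fe.

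Relative to the markers, all 9 transporters had a positive difference in CKD against control mice, as had 98.6% of all genes on this scale. The difference was largest for Slc38a3 (2.06 on the log2 scale), followed by Slc7a9 (1.55), Slc7a8 (1.49), Slc6a18 (1.38), Slc7a7 (1.29) and Slc15a2 (1.13), and was smallest for Slc6a19 (0.89), Slc3a1 (0.82) and Slc1a1 (0.46). For 8 of the 9 the CKD mice were all above the control mice (exact two-sided permutation p = 0.0286, the smallest possible), and for Slc6a19 they overlapped (exact permutation p = 0.0571). Of all genes, 93.8% were likewise higher without overlap, so these counts are near the background. The marker mean of a mouse is subtracted from every gene alike, so the differences keep the order of the log2 fold changes given above. All 9 differences were positive because the marker mean fell by more than any transporter did. Adjusted over the 27 tests of this kind, the p-values were 0.0551 and 0.0964, and none passed 0.05. With 0.0286 as the smallest possible p-value, passing would have needed most of the 27 tests to reach it. For Slc7a9 the relative level was between -2.71 and -1.90 in control mice and between -1.10 and -0.15 in CKD mice.

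**Figure D3:**
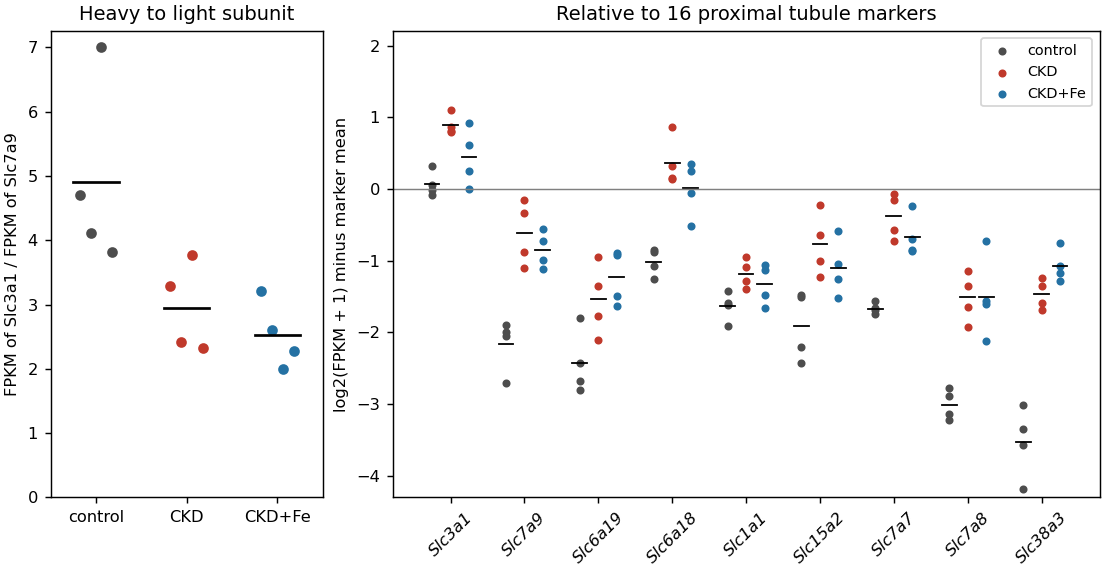
Left, FPKM of Slc3a1 divided by FPKM of Slc7a9 in each mouse; right, log2(FPKM + 1) of each transporter minus the mean of 16 proximal tubule markers in the same mouse (points, mice; lines, group means). The ratio on the left is 3.82 or more in control mice and 3.77 or less in mice on adenine, and on the right the CKD points lie above the control points for every transporter but Slc6a19.

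Markers of other cells moved as well. All 8 macrophage markers were higher in CKD mice, with a summed level of 105 to 220 FPKM in control mice, 1608 to 3301 FPKM under CKD and 1450 to 3384 FPKM under CKD+Fe, and all 6 matrix and myofibroblast markers were higher. All 5 tubule injury markers were higher, with sums of 436 to 712 FPKM in control and 10743 to 19508 FPKM in CKD mice. Of 9 markers of other nephron segments, 2 were lower (Aqp2 and Slc4a1) and 0 higher. The Aqp2 call (-1.24, adjusted p = 0.0415, limma) was lost in 10 of the 22 alternatives, and without control mouse 3 its value was -0.70 (adjusted p = 0.131). The 4 endothelial markers had a median log2 fold change of -0.23, with 1 lower (Kdr), and of 2 T and B cell markers tested 1 was higher (Cd3g, 0.94). The Cd3g call was lost in 8 alternatives, among them median-of-ratios rescaling (0.55), quantile normalization (0.13) and the fit without the 3 mice that stood apart (0.70, adjusted p = 0.114). None of 5 urothelium markers tested passed. No marker of these lists was at 0 in all mice of a group. The part of these cell types in the values of the transporters was not tested.

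Of 4 partner genes of the transporters, 3 were lower and 0 higher in CKD mice. Cltrn (collectrin, which brings B0AT1 and B0AT3 to the membrane, named Tmem27 in the table) fell from 1548 ± 334 FPKM in control to 397 ± 118 FPKM in CKD mice, with no overlap (log2 fold change -1.99, SE 0.31, adjusted p = 9.72e-05, limma). Slc7a13, a second light subunit of rBAT in the late proximal tubule, was 620, 479, 342 and 637 FPKM in the control mice and 63.7, 7.75, 42.7 and 9.45 FPKM in the CKD mice. No CKD mouse came near the control range, and the log2 fold change was -4.49 (SE 0.57, adjusted p = 1.74e-05, limma). Pdzk1, a scaffold of brush border carriers, fell by 1.89 on the log2 scale (SE 0.20, adjusted p = 4.88e-06, limma). Slc3a2, the heavy chain of the basolateral carriers, was 128 ± 7.58 FPKM in control and 107 ± 21.2 FPKM in CKD mice (log2 fold change -0.28, adjusted p = 0.119, limma). It was lower in 4 alternatives, after median-of-ratios rescaling (-0.85, adjusted p = 0.000679), with array quality weights (-0.33, adjusted p = 0.0287), without CKD mouse 3 (-0.38, adjusted p = 0.0355) and without the 3 mice that stood apart (-0.36, adjusted p = 0.0488). The FPKM of Slc6a19 was 0.0270 to 0.0479 of that of Cltrn in control mice, 0.0364 to 0.116 in CKD mice and 0.0601 to 0.150 in CKD+Fe mice. The log2 ratio was 1.47 higher in CKD+Fe than in control mice, without overlap (exact permutation p = 0.0286, adjusted 0.143). Without control mouse 1, 2 or 3 it was 1.36, 1.55 or 1.35 higher, respectively, still without overlap (exact permutation p = 0.0571 each, from fewer arrangements). Against control mice the CKD mice overlapped, and without CKD mouse 3 they were 1.21 higher without overlap (exact permutation p = 0.0286). The ratios of Slc7a8 to Slc3a2 and of Slc7a7 to Slc7a8 overlapped between groups in every comparison of all mice. Without CKD+Fe mouse 2 the log2 ratio of Slc7a7 to Slc7a8 in CKD+Fe mice differed by -0.45 from CKD and by -0.65 from control mice (exact permutation p = 0.0286 each, not adjusted).

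With iron, in CKD+Fe against CKD mice, 0 of the 9 transporters were lower and 0 were higher at an adjusted p under 0.05 (limma), and 2 were higher at an unadjusted p under 0.05. Over all genes tested, 0 were lower and 0.00761% (1 gene) higher at the adjusted threshold, and 3.28% were higher at an unadjusted p under 0.05. The median log2 fold change was 0.21 for the 9 transporters and -0.001 for all genes. The 2 were Slc38a3, at 26.9 ± 4.80 FPKM without and 50.9 ± 16.9 FPKM with iron (log2 fold change 0.84, SE 0.25, unadjusted p = 0.00520, adjusted p = 0.479, limma), and Slc7a8, at 26.3 ± 6.38 and 35.9 ± 6.12 FPKM (0.45, SE 0.19, unadjusted p = 0.0336, adjusted p = 0.786, limma). Neither was free of overlap with the CKD mice: for Slc38a3 CKD+Fe mouse 1 was within their range, and for Slc7a8 all CKD+Fe mice but mouse 3 were.

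The limma call of Slc38a3 changed in the alternatives given next and stayed the same in the others. Without CKD+Fe mouse 1 the log2 fold change of Slc38a3 was 1.12 (adjusted p = 0.0395, limma). With array quality weights the adjusted p was 0.0425, and without the 3 mice that stood apart it was 0.0409. CKD+Fe mouse 1 had the highest summed level of macrophage markers of its group (3384 FPKM) and the lowest of proximal tubule markers (2353 FPKM, against 4052.8 to 5383 FPKM in the other 3). Relative to the proximal tubule markers the Slc38a3 difference between CKD+Fe and CKD mice was 0.40 (exact permutation p = 0.0571, adjusted 0.0964), and CKD+Fe mouse 1, at -1.08, was within the range of its group, -1.28 to -0.75. With the median over the markers in place of the mean, the Slc38a3 difference was 0.33 (exact permutation p = 0.0286, not adjusted). The part of the cell mixture in the Slc38a3 values was not tested.

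Slc6a19 had the second largest difference with iron, from 26.6 ± 10.3 to 47.5 ± 21.9 FPKM (log2 fold change 0.74, SE 0.39, adjusted p = 0.874, limma), and its groups overlapped. Slc3a1 was 142 ± 23.2 FPKM without and 142 ± 27.6 FPKM with iron (log2 fold change -0.01, SE 0.18). The other 5 (Slc7a9, Slc6a18, Slc1a1, Slc15a2 and Slc7a7) had log2 fold changes between 0.08 and 0.29, with adjusted p-values between 0.922 and 0.993 (limma). Relative to the proximal tubule markers, 6 of the 9 had a negative difference with iron, from -0.44 (Slc3a1) to -0.15 (Slc1a1), none of them free of overlap. Of all genes, 96.2% had a negative difference on this scale and 0.297% were lower without overlap. Without CKD+Fe mouse 1 the difference of Slc3a1 was -0.60, without overlap (exact permutation p = 0.0286, not adjusted).

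Among the partners, Slc7a13 was 30.9 ± 27.2 FPKM without and 65.6 ± 31.5 FPKM with iron (log2 fold change 1.42, SE 0.57, unadjusted p = 0.0258, adjusted p = 0.774, limma), with overlap.

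In CKD+Fe against control mice, a comparison that shares its mice with the others, 5 of the 9 transporters were lower and 1 was higher (adjusted p under 0.05, limma). Of all genes tested, 11.0% were lower and 54.4% higher. Slc1a1 (-1.18, adjusted p = 0.000112) and Slc3a1 (-1.11, adjusted p = 0.000143) were lower without overlap between groups, which held for 9.85% of all genes. Slc15a2 (-0.69, adjusted p = 0.0132, and -0.55 with 0.0666 without the 3 mice that stood apart), Slc7a7 (-0.48, adjusted p = 0.0445) and Slc6a18 (-0.47, adjusted p = 0.0343) were lower with overlap. Slc7a7 lost its call in 9 of the 22 alternatives, with log2 fold changes of -0.49 to -0.34 and adjusted p-values of 0.0539 to 0.142 without control mouse 1, 2 or 4, CKD mouse 1 or CKD+Fe mouse 1 or 4. Slc6a18 lost its call in 8, with -0.48 to -0.30 and adjusted p-values of 0.0525 to 0.111 without control mouse 1, 2 or 4 or CKD+Fe mouse 1 or 3. Slc38a3 was higher with overlap, CKD+Fe mouse 1 being within the control range, at 50.9 ± 16.9 FPKM against 24.6 ± 4.91 FPKM in control mice (log2 fold change 0.97, SE 0.25, adjusted p = 0.00422, limma). It did not pass after median-of-ratios rescaling or with quantile normalization, where its value stayed positive, at 0.42 or more. Slc7a9 (-0.17), Slc6a19 (-0.30) and Slc7a8 (0.02) did not pass, with adjusted p-values of 0.625, 0.523 and 0.949. Slc7a8 was lower after median-of-ratios rescaling (-0.54, adjusted p = 0.0328).

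**Figure D4:**
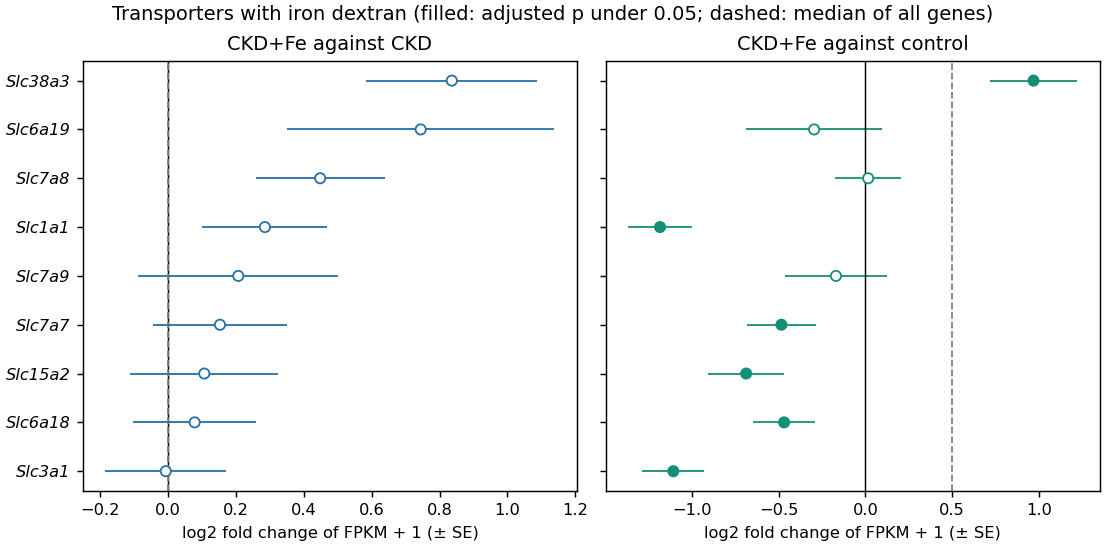
Log2 fold change of FPKM + 1 (horizontal axes; points, limma estimates; bars, standard error; filled, adjusted p under 0.05; dashed, median of all genes) of the 9 transporters in CKD+Fe against CKD mice (left) and against control mice (right). No point on the left is filled, and on the right 5 are filled below 0 and Slc38a3 is filled above 0.

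Other amino acid and peptide transporters, of the proximal tubule and of other cells, were more often higher than lower in CKD. Of 38 listed genes, 37 were matched and 33 tested, and 2 were lower and 18 higher in CKD against control mice, with a median log2 fold change of 0.62. The share that was higher is near the 54.6% of all genes. After median-of-ratios rescaling, and likewise with quantile normalization, 10 were lower and 13 higher. Of all 13148 genes, 3856 were lower and 3781 higher after rescaling, and 3363 were lower and 3060 higher with quantile normalization. The 2 lower genes were Slc6a20b, a relative of the brush border carrier of proline (61.2 ± 10.9 to 13.0 ± 5.26 FPKM, log2 fold change -2.21), and Slc6a13, a carrier of GABA and taurine (82.9 ± 11.1 to 30.1 ± 5.19 FPKM, -1.44). The largest rises were those of Slc7a12, a light chain relative of Slc7a13 (2.12 ± 1.52 to 30.1 ± 18.4 FPKM, 3.24), Slc7a2, a carrier of cationic amino acids (0.61 ± 0.19 to 12.02 ± 3.89 FPKM, 2.96), and Slc15a3, a lysosomal peptide carrier of immune cells (1.47 ± 0.33 to 14.9 ± 4.27 FPKM, 2.65). None of these 5 genes overlapped between control and CKD mice. With iron, 0 of the 33 passed in either direction (limma), and 3 had an unadjusted p under 0.05.

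**Figure D5:**
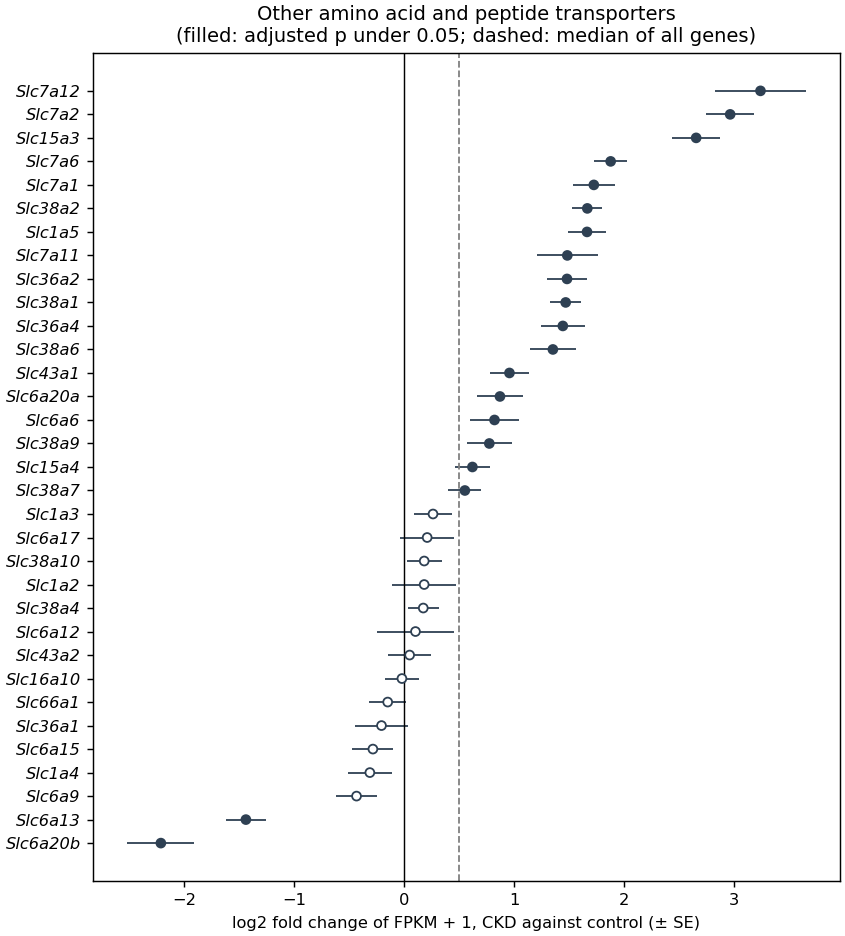
Change (log2 fold) of FPKM + 1, CKD against control (horizontal axis; points, limma estimates; bars, standard error; filled, adjusted p under 0.05; dashed, median of all genes) for 33 other amino acid and peptide transporters. Filled points are 18 above 0, up to 3.24 for Slc7a12, and 2 below 0, Slc6a13 and Slc6a20b.

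Other steps of amino acid handling were listed as well. Of 9 peptidases of the brush border, which release amino acids from filtered peptides, 5 were lower and 1 higher in CKD mice. Mep1b, a meprin subunit, went from 128 ± 16.9 to 12.8 ± 6.95 FPKM (log2 fold change -3.36), Ggt1, which splits glutathione, from 1103 ± 191 to 230 ± 92.0 FPKM (-2.33), and Ace, the angiotensin-converting enzyme, from 60.3 ± 15.1 to 14.0 ± 8.15 FPKM (-2.15). Dpp4, a dipeptidyl peptidase, was higher at 0.61 (adjusted p = 0.0286, limma) and was not called after median-of-ratios rescaling, with quantile normalization, with no filter on low values or without any 1 of 5 mice. Of 3 enzymes of glutamine and ammonia metabolism, Pck1, the gluconeogenic enzyme of the proximal tubule, was lower (774 ± 208 to 352 ± 163 FPKM, -1.23). Pck1 was not called in 6 alternatives, those being quantile normalization (-0.91, adjusted p = 0.126), no filter on low values (adjusted p = 0.0754) and the fits without control mouse 1 or 2 or CKD mouse 2 or 3 (adjusted p = 0.0583 to 0.0766). None of the peptidases or enzymes passed in CKD+Fe against CKD mice. Of 4 markers of the late proximal tubule, Slc7a13, Cyp7b1 (-4.06) and Atp11a (-1.18) were lower, and Slc5a1, a glucose carrier, was higher at 0.40 (adjusted p = 0.0476, limma), a call that was lost in 15 of the 22 alternatives and a direction that turned to -0.16 after median-of-ratios rescaling.

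The 5 genes whose values, relative to their own control mean, lay nearest to the mean of the 9 transporters were sought over all 12 mice among 13132 genes. They were Sdha, a subunit of succinate dehydrogenase (root mean square difference 0.127 on the log2 scale), Slc5a9, a sugar carrier (0.135), Aco1, the cytosolic aconitase and iron regulatory protein (0.136), Hsdl2, a relative of the hydroxysteroid dehydrogenases (0.143), and Pdha1, a subunit of pyruvate dehydrogenase (0.144). Sdha went from 309 ± 28.8 FPKM in control mice to 196 ± 31.2 FPKM under CKD and 226 ± 30.1 FPKM under CKD+Fe. These genes were picked for their likeness and are given as a description.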

How the data were processed

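RNA was extracted from whole kidneys of 12 mice, and stranded mRNA libraries were sequenced by the authors on a HiSeq4000 instrument with single-end reads of 50 cycles. The submitters' processing notes name bcl2fastq 2.19, STAR 2.5.2, Cufflinks 2.1.1 and the build GRCm38. The annotation release is not given in the sources used here, and 99.9% of the 21810 rows with a GENCODE M21 identifier overlap that gene. The authors deposited FPKM values, 1 per gene and mouse, and 30 values in 17 genes marked as failed estimates were treated as missing. The table holds no read counts, so the count test of the study (DESeq2) was not run. Low values gave no clear common step between mice, so depth is unknown and no counting interval is given. FPKM totals ran from 503438 to 707843 per mouse.

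Values were analysed as log2(FPKM + 1), on which changes of low genes are understated, with limma 3.58.1 in R 4.3.3 (variance trend, all 12 mice in 1 fit), over the 13148 genes that reached 1 FPKM in 4 mice or more. Two-sided p-values were adjusted over these genes by Benjamini-Hochberg, and 0.05 was the threshold. Within-mouse values were compared by exact two-sided permutation tests over 70 arrangements, and over fewer with a mouse left out (Python 3.11.15). The fit and the permutation test were tested on simulated data.

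The transporters and all 14 gene lists were chosen with earlier results of these data known. Named were every transporter and partner, of each other list up to 3 tested genes with the largest rise and 3 with the largest fall past the threshold in CKD, any gene past it with iron, and the 5 genes nearest to the transporters. Slc7a5 and Dpep1 are not analysed here, and some genes of these pathways are not reported here. Alternatives were a pseudocount of 0.1, median-of-ratios rescaling, quantile normalization, no filter, a minimum mean of 5 FPKM, fits of 2 groups, array quality weights, no variance trend, each mouse left out in turn, and the 3 mice that stood apart left out together. An adjustment for transcript length and GC content (splines with 5 degrees of freedom) was added after seeing the data.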

Additional observations from a re-analysis of the deposited data

Results flagged for a closer look

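In 4 of the 27 groups of 4 mice (9 transporters in 3 groups), 1 mouse was farther from the others than Dixon's 95% critical value allows for the gap divided by the range. Chance gives about 1 in 20 such groups when they are independent. These are not, because the 9 transporters were measured in the same mice, so the count of 4 was not tested against that rate. Slc7a9 was 33.7 FPKM in control mouse 3, against 75.6 to 82.1 FPKM in the other control mice, and 33.4 FPKM in CKD+Fe mouse 1, against 65.7 to 68.7 FPKM in the others of that group. Both mice stood apart across the whole table. Slc7a8 was 45.03 FPKM in CKD+Fe mouse 3, against 32.3 to 33.5 FPKM in the others. Slc38a3 was 17.2 FPKM in control mouse 4, against 26.6 to 27.3 FPKM in the other control mice.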

How the results depend on the processing

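The number of transporters lower in CKD mice ran from 5 to 8 over the alternatives, with 0 higher in each, and Slc3a1, Slc1a1 and Slc15a2 stayed past the threshold in all 22. Of all 13148 genes, 1550 to 3856 were lower and 3060 to 7961 higher in CKD mice over the alternatives. With a minimum mean of 5 FPKM, 1571 of 9702 genes were lower and 4799 higher, and with no filter 1745 of 22053 were lower and 7882 higher. In CKD+Fe against CKD mice, 1 transporter (Slc38a3) was higher with array quality weights, without CKD+Fe mouse 1, and without the 3 mice that stood apart, where the leave-one-out counts ran from 0 to 1. Over all genes in that comparison, 0 were lower and 1 higher, against 56 and 79 with array quality weights, 4 and 9 without CKD+Fe mouse 1, and 33 and 51 without the 3 mice. In CKD+Fe against control mice, 3 were lower with no filter on low values and with quantile normalization, between 3 and 5 with 1 mouse left out, and 0 were higher after median-of-ratios rescaling or quantile normalization. Over all 13148 genes, 1442 were lower and 7159 higher as reported, and 1238 to 1542 were lower with 1 mouse left out. With no filter, 1418 of 22053 were lower. After rescaling 3618 of 13148 were lower and 3636 higher, and with quantile normalization 2967 and 2605. The following signs changed, and except for Slc7a8 after rescaling (adjusted p = 0.0328, limma) none of the changed values passed; the cause was not tested. In CKD against control mice, median-of-ratios rescaling gave -0.42 for Slc38a3 and -0.16 for Slc5a1, and quantile normalization -0.17 for Slc38a3; Slc38a3 ran from -0.023 to 0.22 with 1 mouse left out. In CKD+Fe against CKD mice, Slc3a1 was 0.0031 after rescaling, 0.0020 with length and GC adjustment and 0.10 without the 3 mice, and with 1 mouse left out it ran from -0.10 to 0.12, Slc6a18 from -0.060 to 0.25, Slc15a2 from -0.041 to 0.28, and Cltrn from -0.040 to 0.51. In CKD+Fe against control mice, Slc7a8 was -0.54 after rescaling, -0.18 with quantile normalization, -0.036 without the 3 mice, -0.0087 with length and GC adjustment and -0.10 to 0.16 with 1 mouse left out. Slc6a19 was 0.033 with array quality weights, and with 1 mouse left out it ran from -0.54 to 0.074 and Slc7a9 from -0.47 to 0.077. The log2 ratio of Slc6a18 to Slc6a19 ran from -0.46 to 0.13 (CKD+Fe against control), and that of Slc7a8 to Slc3a2 from -0.050 to 0.26 (CKD+Fe against control) and from -0.27 to 0.011 (CKD against control), with 1 mouse left out. Relative to the markers, the Slc7a8 difference with iron was -0.055 with the median over the markers and -0.25 to 0.21 with 1 mouse left out. No paired analysis was possible because the labels give the mice of different groups no shared replicate numbers. Transcripts of long and short genes deviated differently in several mice: the median deviation of transcripts over 4213 nucleotides minus that of transcripts up to 2566 was -0.36 in control mouse 3, -0.60 in CKD mouse 3, -0.11 in CKD+Fe mouse 1 and -0.14 to 0.37 in the other 9 mice (log2). The reported ratios of gene pairs were taken from values not adjusted for length. The longest transcript had 2278 nucleotides for Slc7a7 and 4084 for Slc7a8, and 2271 for Slc3a1 and 2086 for Slc7a9. The part of length in the ratios was not tested.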
